A study of Homo sapiens with 15 samples.

Results

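RNA that came down with an antibody against Sfpq was compared with RNA that came down with non-specific IgG in 22Rv1, an established human prostate cancer cell line. The comparison used 5 of the 15 libraries of the series, Sfpq replicates A and B and IgG replicates A, B and C. All 5 came from 22Rv1 cells that were fixed in formaldehyde, and the labels give them no other treatment, genotype or time point. Of the 22542 rows of the table, 17464 had 30 or more reads summed over the IgG libraries and were tested, and 5078 had fewer and were not. A row is a gene name, either alone (a plain row, 8483 tested) or with the suffix .primary (8981 tested). What the suffix stands for is not given in the sources used here, so the kinds of row were kept apart. The other libraries of the cell line, 2 of input RNA and 2 with an antibody against Brg1, serve below to set values in context, as shares of their summed values. They also entered an alternative fit and the choice of some rows near the end.

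SFPQ is a nuclear RNA-binding protein that pairs with NONO or PSPC1, takes part in splicing and transcription, and sits with NEAT1 RNA in the nuclear bodies called paraspeckles. It is known to bind introns, long ones among them, and long genes are known to depend on it for full transcription. An immunoprecipitation recovers a protein through its antibody, and with it the RNA that fixation has joined to it, while IgG without a target shows what comes down in any case. Each value below is a share of a library, in RPM (reads of the row per 1000000 recovered reads of the library), so it describes the make-up of the precipitate and not how much RNA was in it.

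The Sfpq libraries held 7139669 and 7352226 recovered reads in replicates A and B, and the IgG libraries held 4424105, 1751329 and 490879 in replicates A, B and C. A single read was therefore worth 0.140 and 0.136 RPM in Sfpq and 0.226, 0.571 and 2.04 in IgG. The Sfpq libraries were close to each other and the IgG libraries were not. Across the tested rows, Spearman's rho was 0.979 between the Sfpq libraries and 0.330, 0.424 and 0.385 between IgG A and B, A and C, and B and C. The median row had a standard deviation of log2 shares of 0.151 over the Sfpq libraries and 1.76 over the IgG libraries. Among 11416 rows with a mean of at least 20 RPM, 191 in IgG A, 160 in IgG B and 239 in IgG C stood 10-fold or more above the other libraries of the group, against 10 in Sfpq A and 7 in Sfpq B. The labels do not say whether the libraries of a group came from separate cultures, so p-values below measure only the spread between these libraries, which may be technical.

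The clearest feature of the RNA recovered with Sfpq was its high share of plain rows of protein-coding genes. These rows took 68.5% and 62.6% of the reads in Sfpq A and B, against 31.1%, 34.1% and 53.8% in IgG A, B and C. Both Sfpq libraries were above every IgG library, and IgG C was the closest of the IgG libraries. The input libraries were at 51.0% and 53.3%, and the Brg1 libraries at 29.2% and 32.4%. Rows with the suffix .primary took 27.5% and 33.4% of the reads in Sfpq and 62.5%, 59.5% and 39.1% in IgG. That is 30.4% ± 4.20 (SD, n = 2) against 53.7% ± 12.7 (SD, n = 3), a difference of -23.3 percentage points. The exact permutation test over the 5 libraries gave a two-sided p of 0.2, the smallest that the 10 arrangements allow, and 0.24 after Benjamini-Hochberg adjustment over 12 such measures, so the design cannot take this difference past 0.05. Leaving out each library in turn moved the difference to between -18.9 and -30.6 points, and it stayed negative each time.

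**Figure D1:**
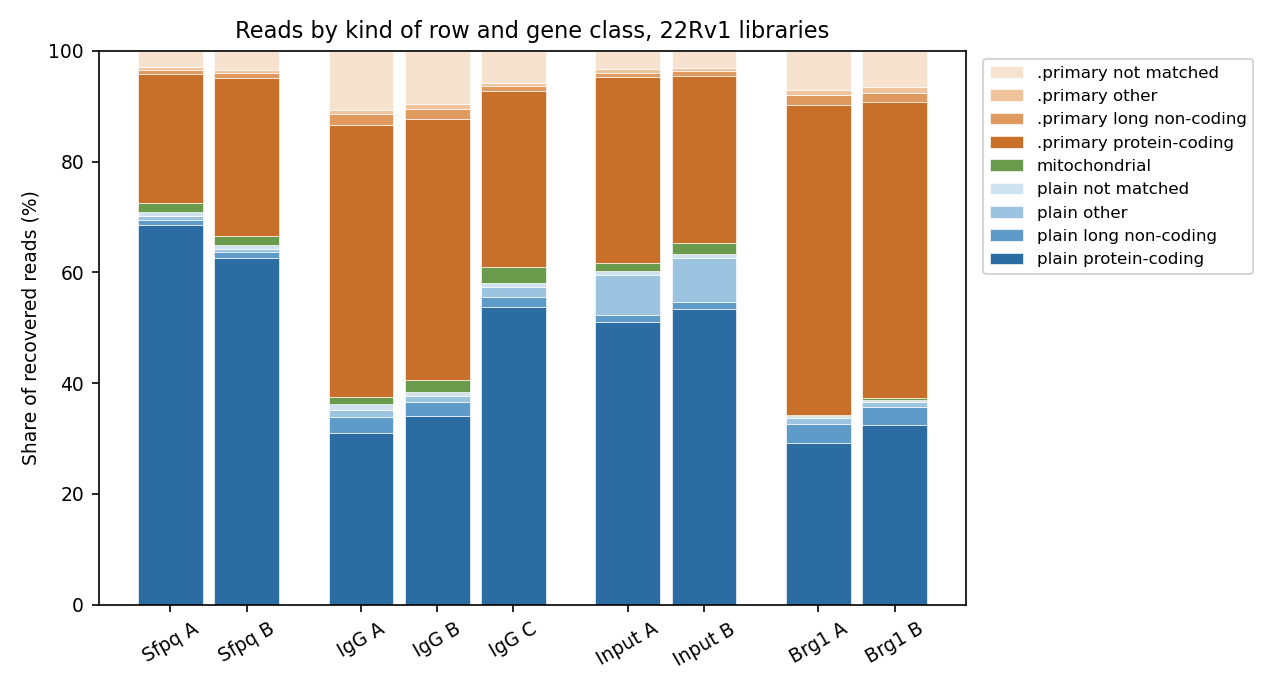
Stacked bars give the percentage of each 22Rv1 library's recovered reads (vertical axis) on plain rows (blue), mitochondrially encoded rows (green) and .primary rows (orange), split by RefSeq gene class. Plain protein-coding rows reach 68.5% and 62.6% in Sfpq A and B and 31.1%, 34.1% and 53.8% in IgG A, B and C.

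Plain rows of long non-coding genes took 0.949% and 0.957% of the Sfpq reads and 2.88%, 2.44% and 1.67% of the IgG reads, and this gap rested on the 2 rows of the class with the most reads. Without those rows the class was at 0.492% and 0.526% in Sfpq and 0.494%, 0.488% and 0.534% in IgG, which overlap, and 78 of its 120 tested rows had a positive log2 fold change. Mitochondrially encoded rows overlapped, at 1.67% and 1.66% in Sfpq and 1.23%, 2.14% and 2.87% in IgG. A single row, FP671120.1.primary, which was picked out after its values were seen, held the most reads in all 5 libraries. It took 5726 and 7103 RPM in Sfpq A and B and 60736, 46748 and 24564 in IgG A, B and C. The IgG precipitates were also more concentrated on few rows. Each library's own 100 rows of most reads took 10.9% and 10.5% of the reads in Sfpq A and B. In IgG A, B and C such rows took 19.6%, 17.8% and 16.7%. In a separate setting, with shares taken without the 100 most abundant rows, the .primary difference was -22.2 percentage points.

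Row by row, limma on log2(RPM + 1) called 0 rows higher in Sfpq (0% of the rows tested) and 4 rows lower (0.0229%) at a Benjamini-Hochberg adjusted p under 0.05. At an unadjusted p under 0.05, limma had 892 rows higher and 495 lower. On the recovered reads edgeR called 0 higher and 0 lower, with 401 and 568 at an unadjusted p under 0.05, and DESeq2 called 9 higher and 56 lower while giving no adjusted p for 11856 rows. The counts depended on the filter. Rows entered by their IgG reads alone, so rows low in IgG and high in Sfpq were left out. Rows nearly absent from Sfpq could still enter. With no filter on reads limma called 1299 rows higher and 17 lower, and at a mean share of at least 5 RPM 0 and 0. They also depended on single libraries. Without IgG A limma called 420 rows higher and 2 lower, without IgG B 0 and 0, without Sfpq A 0 and 10, and without Sfpq B 0 and 11. The count of rows whose groups do not overlap needs no model of the spread. Both Sfpq libraries were above all 3 IgG libraries in 3318 rows (19% of those tested) and below all 3 in 2179 rows (12.5%). The 5 libraries have 10 arrangements, of which 1 puts both Sfpq libraries on top and 1 puts both at the bottom. If the 5 libraries were interchangeable, a share near 1 in 10 in each direction would arise without any difference between the groups. They were not, since the Sfpq libraries lay far closer to each other than the IgG libraries did. The share that would arise without a difference is therefore not known and can exceed 1 in 10. Single rows without overlap are no calls, and neither percentage is a test. With 1 IgG library fewer to clear, the first count was 5708 without IgG A, 4838 without IgG B and 5083 without IgG C, and the second was 3380, 4445 and 3858.

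The plain and .primary rows were displaced in opposite directions. Of the plain rows, 2829 (33.3%) lay above all IgG libraries and 302 (3.56%) below them. Of the .primary rows, 489 (5.44%) lay above and 1877 (20.9%) below. The median log2 fold change, meaning the difference of mean log2(RPM + 1), was 1.14 over plain rows, -0.27 over .primary rows and 0.46 over all rows. edgeR, which averages reads and not their logarithms, gave lower medians of 0.52, -0.95 and -0.23, so the median of all rows has opposite signs in the 2 fits. The .primary median was -0.03 without IgG A, -0.42 without IgG B and -0.43 without IgG C. When each kind of row was scaled to its own total, the medians were 0.65 and 0.56, so the negative sign of the .primary median belongs to the shares of the whole library and not to the shares within that kind.

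**Figure D2:**
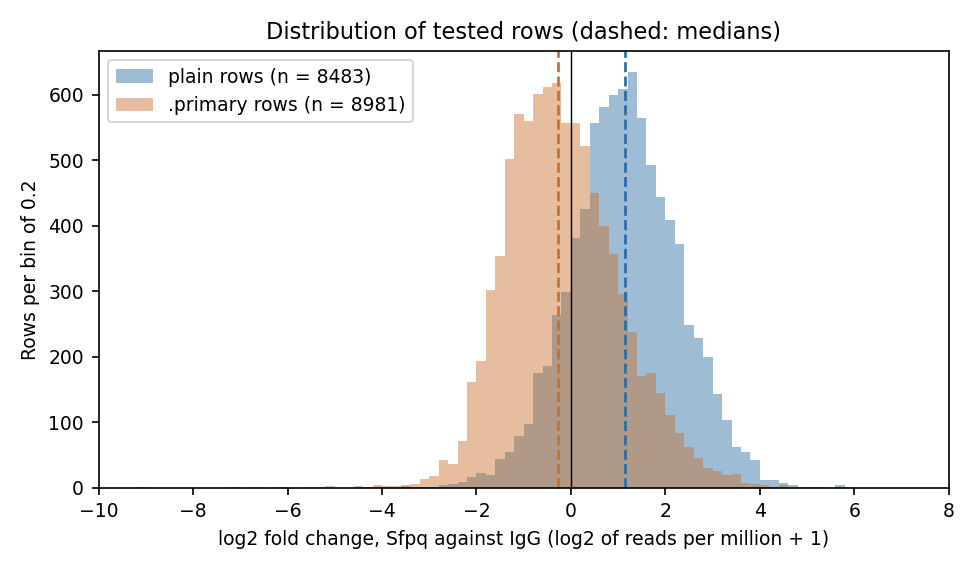
Histogram of the log2 fold change of Sfpq against IgG (horizontal axis) over 8483 plain rows (blue) and 8981 .primary rows (orange), in bins of 0.2 with the number of rows on the vertical axis. The dashed medians lie at 1.14 and -0.27.

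A row's own IgG reads are the denominator of its fold change, so classes of IgG reads differ in fold change by construction. The median log2 fold change was 1.23 in rows with 30 to 99 IgG reads (4385 rows), 0.46 in rows with at least 100 but fewer than 300 and -0.23 in rows with 300 or more. The plain and .primary medians in these classes were 1.76 and 0.57, 1.10 and -0.18, and 0.71 and -0.80. At the threshold itself the values did not jump, with a median of 1.56 in the 381 rows of 25 to 29 IgG reads and of 1.61 in the 331 rows of 30 to 34.

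The same contrast appeared inside single genes. A total of 5452 genes had both kinds of row among those tested. The plain row had the higher log2 fold change in 4371 of them (80.2%), and the median of the plain value minus the .primary value was 1.45. In 2833 genes the plain row was positive and the .primary row negative, and in 317 the reverse held. The plain row lay above all IgG libraries while the .primary row of the same gene lay below them all in 582 genes, against 10 genes with the opposite arrangement. Within a library, the median log2 ratio of the plain to the .primary share was 1.36 and 1.02 in Sfpq A and B and -0.59, -0.45 and 0.40 in IgG A, B and C. Both Sfpq libraries were again above every IgG library, and IgG C was again the closest. The input libraries were at 0.12 and 0.34 and the Brg1 libraries at -1.05 and -0.90.

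Gene length separated the row kinds further. Gene spans were read from RefSeq (GRCh38.p14), which had one for 97.4% of the plain and 91.3% of the .primary rows tested. From the shortest to the longest of 4 equal classes of span, divided at 17.0, 41.3 and 100.3 kb, the median log2 fold change of plain rows was 0.90, 1.11, 1.27 and 1.36. Over the same classes that of .primary rows was 0.34, 0.01, -0.29 and -0.67. The share of .primary rows below all IgG libraries was 6.22%, 13.7%, 24.2% and 32.8% in that order, and the share of plain rows above them was 21.1%, 31.6%, 40.3% and 46.9%. Scaled to the total of their own kind, the .primary medians were 1.29, 0.87, 0.53 and 0.11, in the same order but all positive, while the plain medians were 0.44, 0.62, 0.77 and 0.87. The second .primary class, at 0.01, also took a negative sign under TMM factors, median-of-ratios factors and without the 100 rows of most reads. In edgeR all 4 .primary classes were negative, at -0.76, -0.85, -0.92 and -1.11, in the same order but closer together. The plain classes were at 0.22, 0.49, 0.70 and 0.83 in edgeR. Leaving out IgG A, B or C in turn left the order of the 4 classes as it was in both kinds of row. The shortest and longest plain classes were then at 0.95 and 1.27, 0.44 and 1.014, and 1.12 and 1.60, and the .primary classes at 0.63 and -0.46, 0.15 and -0.68, and 0.24 and -1.009. IgG reads per row moved with span too, since 80 of the shortest and 1598 of the longest .primary rows had 300 or more IgG reads. Among .primary rows of 300 or more IgG reads the medians were -0.35, -0.62, -0.73 and -0.87, and among plain rows of that depth they were 0.33, 0.62, 0.86 and 0.97.

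**Figure D3:**
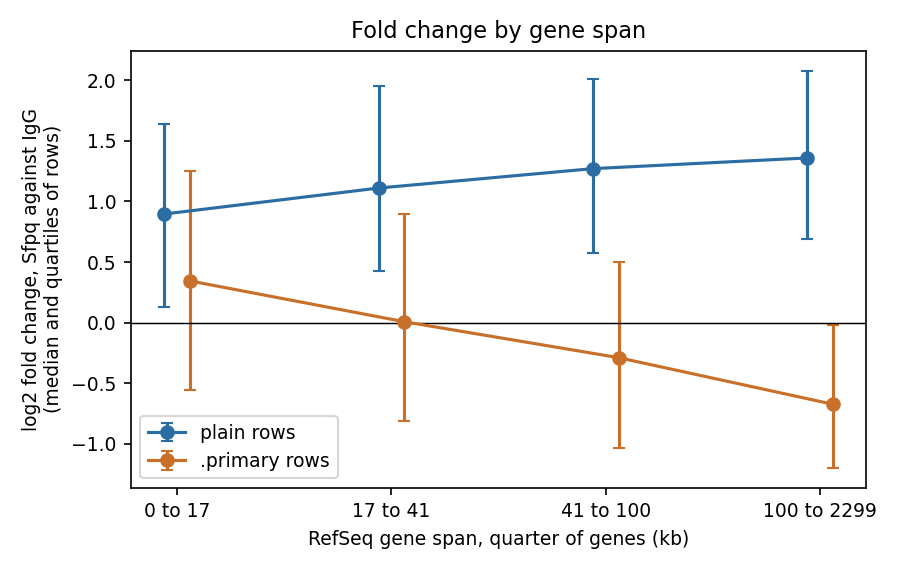
Median log2 fold change of Sfpq against IgG (vertical axis, bars from the lower to the upper quartile of rows) in 4 classes of RefSeq gene span (horizontal axis, kb), for plain rows (blue) and .primary rows (orange). The plain medians go from 0.90 to 1.36 and the .primary medians from 0.34 to -0.67.

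The 4 rows that fell in Sfpq against IgG were few in number but large in size. LINC01184.primary, a long non-coding gene that RefSeq lists as SLC12A2-DT (chr5:127940440-128083175), had 33.2 and 44.3 RPM in Sfpq A and B and 2184, 2439 and 703 in IgG A, B and C. Its difference on the log2 scale was -5.30 (SE 0.56, limma adjusted p 0.00168). COL5A2.primary, from a collagen V chain gene (chr2:189031898-189441111), had 3.502 and 5.169 RPM in Sfpq and 242, 256 and 189 in IgG. Its log2 fold change was -5.44 (SE 0.73, limma adjusted p 0.0119). Both rows were far below in each Sfpq library, and neither RNA was an abundant one before precipitation, with 49.8 and 45.2 RPM of LINC01184.primary and 7.60 and 6.36 of COL5A2.primary in the inputs. The IgG values are the ones far from the inputs.

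The other two were plain rows with no RefSeq match. AL078639.1 had 39.8 and 32.6 RPM in Sfpq A and B and 356, 794 and 978 in IgG A, B and C. The log2 difference was -4.14 (SE 0.54, limma adjusted p 0.0114). AC022217.3 had 1 read in Sfpq A and 0 in Sfpq B, or 0.14 and 0 RPM, and 4700, 1135 and 36.7 in IgG, at -9.10 (SE 1.41, limma adjusted p 0.0452). The IgG libraries themselves differed more than 100-fold for AC022217.3, and 18 reads carry its value in IgG C. With 1 read in Sfpq, its fitted value depends on the pseudocount and is no bound. For all 4 rows the IgG shares also lay above the Brg1 and input shares. None of the 4 passed under edgeR at library totals, where their adjusted p-values were 0.309 for LINC01184.primary, 0.140 for COL5A2.primary, 0.415 for AL078639.1 and 0.593 for AC022217.3. Without IgG B none of the 4 passed, at limma adjusted p-values of 0.296 for each of the first 3 and 0.298 for AC022217.3.

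The next 4 rows by the size of the moderated t, among those whose groups did not overlap, were .primary rows and did not pass. HDAC8.primary, from a class I histone deacetylase gene, had 109 and 110 RPM in Sfpq and 885, 967 and 469 in IgG (log2 fold change -2.74, SE 0.49, limma adjusted p 0.158). C19orf18.primary had 0.14 and 0.54 in Sfpq and 129, 155 and 108 in IgG, against 0.15 and 0.50 in the inputs. SPECC1L.primary, from a gene for a cytoskeletal cross-linking protein, had 10.6 and 4.76 in Sfpq and 229, 91.9 and 145 in IgG. AC084357.3.primary was at 0 in both Sfpq, both Brg1 and both input libraries but had 2563, 259 and 15 reads in IgG A, B and C. In both C19orf18.primary and AC084357.3.primary, every IgG library was above every other 22Rv1 library.

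At the other end, the 8 rows named as highest were all plain rows of protein-coding genes, and none passed. SIN3A, the scaffold of a histone deacetylase corepressor (chr15:75369379-75455815), had 403 and 388 RPM in Sfpq A and B and 54.9, 9.71 and 55.0 in IgG A, B and C. Its log2 fold change was 3.62 (SE 0.74, limma adjusted p 0.328). CHD8, a chromatin remodeller (chr14:21385199-21456123), had 712 and 689 in Sfpq and 125, 99.9 and 214 in IgG (2.33, SE 0.49, limma adjusted p 0.334). In both genes the Sfpq libraries agree within 4% of each other and exceed the highest IgG library more than 3-fold.

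NCOA6, a coactivator of nuclear receptors (chr20:34714774-34825651), had 302 and 327 RPM in Sfpq and 14.9, 56.5 and 57.0 in IgG (3.07, SE 0.68). ZC3H4, a zinc finger protein that limits non-coding transcription (chr19:47064187-47113776), had 279 and 308 in Sfpq and 25.3, 46.3 and 53.0 in IgG (2.85, SE 0.60). HNRNPUL2, a relative of the RNA-binding protein hnRNP U (chr11:62712630-62727457), had 241 and 239 in Sfpq and 49.5, 11.99 and 12.2 in IgG (3.55, SE 0.79). The remaining named rows, PRR14L, ANKRD17 and HIVEP1, had log2 fold changes of 2.35, 2.26 and 2.31. All 8 rows also had higher shares in both Sfpq libraries than in either input, as in SIN3A at 117 and 130 and CHD8 at 238 and 257 RPM of input. So did 53.7% of all plain rows tested, and 83.4% of the plain rows above all IgG libraries, to which the 8 belong. The limma adjusted p-values of the 8 rows ran from 0.328 to 0.587. Without IgG A those of PRR14L and HNRNPUL2 were 0.0431 and those of ZC3H4 and NCOA6 0.0453.

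**Figure D4:**
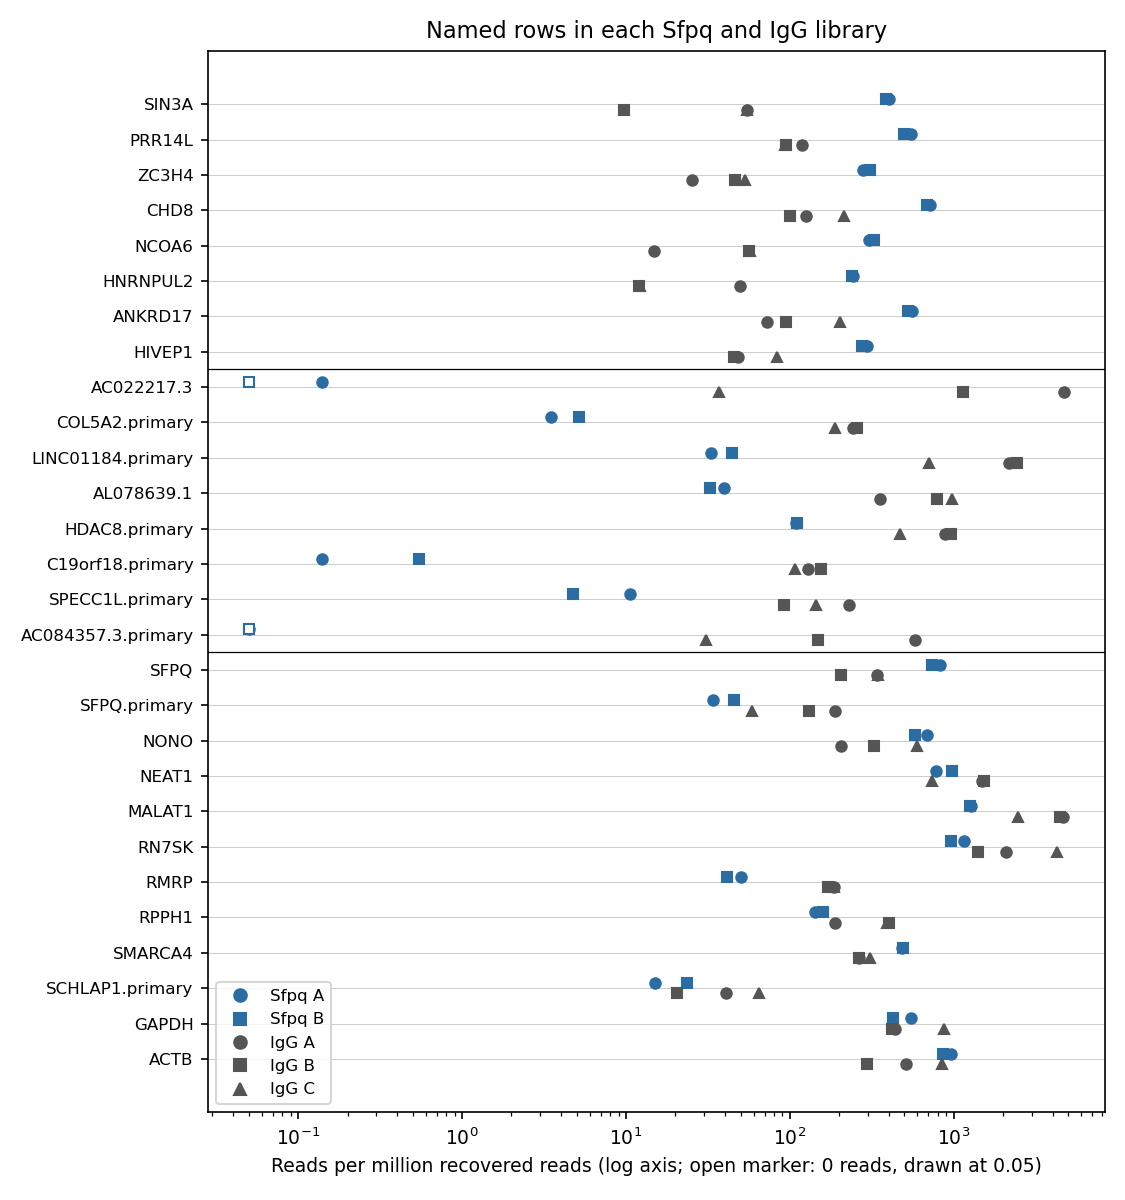
RPM (horizontal log axis) of the 8 rows named as highest, the 8 named as lowest and 12 rows named for their role, with Sfpq in blue and IgG in grey and the replicate given by the marker. In the upper block every Sfpq point lies to the right of every IgG point, and in the middle block to the left. Only AC022217.3, COL5A2.primary, LINC01184.primary and AL078639.1 passed the test, and open markers stand for 0 reads.

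The RNA of SFPQ itself was among those with no overlap. The plain row SFPQ (chr1:35176380-35193145) had 826 and 735 RPM in Sfpq A and B and 342, 206 and 344 in IgG A, B and C. The log2 difference was 1.43 (SE 0.47, limma adjusted p 0.587). SFPQ.primary had 34.04 and 45.6 in Sfpq and 188, 131 and 59.1 in IgG, at -1.50 (SE 0.67, limma adjusted p 0.607). The rows of this gene lay on opposite sides of the IgG libraries, neither past the threshold. NONO, the main partner of SFPQ, had 682 and 577 in Sfpq and 206, 325 and 595 in IgG, which overlap in IgG C. PSPC1, the other partner, had 85.2 and 66.1 in Sfpq and 66.2, 1.71 and 6.11 in IgG, where 3 reads each carry the values of IgG B and C.

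NEAT1, the long non-coding RNA that paraspeckles are built on (chr11:65422798-65445540), did not separate the groups. It had 774 and 981 RPM in Sfpq A and B and 1478, 1537 and 739 in IgG A, B and C. The log2 difference was -0.45 (SE 0.51, limma adjusted p 0.854). Both Sfpq values lay between IgG C and the other IgG libraries, and above the inputs at 447 and 379. MALAT1, a neighbouring long non-coding RNA of nuclear speckles (chr11:65497738-65506516), had 1275 and 1246 in Sfpq and 4616, 4420 and 2449 in IgG, at -1.55 (SE 0.57, limma adjusted p 0.587). For MALAT1 both Sfpq libraries were below every IgG library and also below the inputs, at 2614 and 2738.

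In the gene lists that follow, no row passed the limma test except where one is named as called. Proteins known from paraspeckles were encoded by 31 plain rows tested. Of these, 29 had a positive log2 fold change, as did 7196 of all 8483 plain rows. Above all IgG libraries lay 11 (35.5%, against 33.3% of all plain rows) and below them 0, with a median of 0.94 against 1.14 over all plain rows. UBAP2L, TAF15 and RBM12 were among those above, at 393 and 366, 298 and 239, and 236 and 229 RPM in Sfpq, where the highest IgG library was at 214, 190 and 122. HNRNPA1, the row of the list with the most reads, overlapped at 1296 and 1054 in Sfpq and 587, 538 and 1218 in IgG. Of the 24 .primary rows of these genes, 3 (12.5%, against 5.44% of all .primary rows) lay above all IgG libraries and 4 (16.7%, against 20.9%) below. They had a median of 0.27. That median took a negative sign in edgeR (-0.65), without IgG B (-0.02) and without IgG C (-0.38). DAZAP1.primary was an exception to the usual order of row kinds, with 308 and 476 in Sfpq and 106, 136 and 104 in IgG, while the plain row DAZAP1 overlapped at 128 and 106 against 95.2, 175 and 126.

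A list put together for nuclear long non-coding RNAs is no measure of these alone, since it also holds the cytoplasmic NORAD. It had 15 plain rows, NEAT1 and MALAT1 included. Of these, 10 had a negative log2 fold change, 4 (26.7%, against 3.56% of all plain rows) lay below all IgG libraries and 1 above, and the median was -0.45. It was -0.29 without IgG A, -0.68 without IgG B and -0.71 in edgeR. The 6 .primary rows of the list had a median of 0.44, with 4 positive, and it was -0.48 without IgG B and -0.15 in edgeR. NORAD, which binds Pumilio proteins in the cytoplasm, was the row above, at 870 and 902 RPM in Sfpq A and B and 252, 108 and 805 in IgG A, B and C. Beyond the 2 rows with the highest mean share in each list, examples such as NORAD were chosen after their values were seen. IgG C was close to Sfpq for NORAD, while IgG A and B were not. GAS5, a host of small nucleolar RNAs, lay below, at 25.9 and 29.9 in Sfpq and 45.7, 36.0 and 89.6 in IgG. Among 116 .primary rows with a LINC name, 20 (17.2%, against 20.9% of all .primary rows) lay below all IgG libraries and 1 above, with a median of -0.31 (0.54 when scaled to the total of their own kind, -0.03 without IgG A and -0.68 without IgG C), and LINC01184.primary was the only one called.

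Small structured RNAs work in stable ribonucleoprotein particles. All 9 tested rows had a negative log2 fold change, 5 (55.6%, against 3.56% of all plain rows) lay below all IgG libraries and 0 above, and the median was -1.13. RMRP, the RNA of the RNase MRP enzyme, had 50.6 and 41.1 RPM in Sfpq A and B and 187, 172 and 185 in IgG A, B and C (log2 fold change -1.97, SE 0.55, limma adjusted p 0.587). Here the IgG libraries were close to each other, and every one was more than 3-fold above Sfpq. RN7SK, which holds the elongation factor P-TEFb inactive, had 1157 and 967 in Sfpq and 2072, 1402 and 4274 in IgG (-1.13). RPPH1, the RNA of RNase P, had 141 and 160 in Sfpq and 189, 404 and 389 in IgG (-1.04). RN7SL1, an RNA of the signal recognition particle that has near-identical copies in the genome, had 874 and 743 in Sfpq and 2478, 1933 and 4203 in IgG (-1.75). The inputs were higher than either antibody for these RNAs, as with 25673 and 32888 RPM of RN7SL1.

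Core spliceosome genes had 30 plain rows. Of these, 28 had a positive log2 fold change, as did 7196 of all 8483 plain rows. Above all IgG libraries lay 18 (60%, against 33.3% of all plain rows) and below them 1. The median was 1.37 against 1.14 over all plain rows. PRPF8, a scaffold of the catalytic centre, had 1123 and 1032 RPM in Sfpq A and B and 444, 506 and 748 in IgG A, B and C. SF3B1, which recognises the branch point as part of the U2 particle, had 318 and 257 in Sfpq and 166, 54.8 and 104 in IgG. The row below was U2AF1, at 4.2 and 0.5 in Sfpq and 55.2, 50.8 and 44.8 in IgG, and reads of this gene can be split with a near-identical copy. The 23 .primary rows of the list had a median of -0.35. It was 0.64 when scaled to the total of their own kind, and 0.10, -0.68 and -0.22 without IgG A, B and C. Of these rows, 3 (13.0%, against 5.44% of all .primary rows) lay above all IgG libraries and 4 (17.4%, against 20.9%) below. SF3B1.primary was among those below.

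Among 31 plain rows of SR proteins, hnRNPs and CLK kinases, which regulate splice site choice, 14 (45.2%, against 33.3% of all plain rows) lay above all IgG libraries and 0 below. The median was 0.68 against 1.14 over all plain rows. SRRM2, a scaffold of nuclear speckles, had 2484 and 2546 RPM in Sfpq A and B and 786, 588 and 1300 in IgG A, B and C (log2 fold change 1.57, SE 0.52, limma adjusted p 0.587). SON, another speckle scaffold, had 1102 and 1032 in Sfpq and 183, 129 and 554 in IgG (2.17, SE 0.57). SRSF3, which encodes a small SR protein, had 149 and 120 in Sfpq and 122, 310 and 271 in IgG, and SRSF2 had 151 and 138 against 128, 225 and 236, and both overlapped. PTBP1.primary, from the gene of a splicing repressor, was a .primary row above all IgG libraries, at 125 and 189 in Sfpq and 54.2, 15.99 and 30.6 in IgG.

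The series concerns the SWI/SNF chromatin remodelling complex and SCHLAP1, a long non-coding RNA of prostate cancer, so these genes were read as well. All 20 plain rows of SWI/SNF subunits had a positive log2 fold change, as did 7196 of 8483 plain rows in all. Above all IgG libraries lay 14 (70%, against 33.3% of all plain rows) and below them 0. The median was 1.22, near the 1.14 of all plain rows. ARID1A, a DNA-binding subunit, had 649 and 704 RPM in Sfpq A and B and 179, 248 and 377 in IgG A, B and C. SMARCA4, which encodes Brg1, had 486 and 492 in Sfpq and 262, 265 and 308 in IgG (log2 fold change 0.81, SE 0.45, limma adjusted p 0.653). Its share in the Brg1 precipitates was of another order, at 12446 and 16356. Of 15 .primary rows of the list, 4 (26.7%, against 20.9% of all .primary rows) lay below all IgG libraries. These were SS18.primary, PBRM1.primary, ARID2.primary and SMARCC1.primary. Above lay 1 (6.67%, against 5.44%), BCL7A.primary. SCHLAP1.primary had 15.1 and 23.5 in Sfpq and 40.5, 20.6 and 65.2 in IgG (-0.97, SE 1.011, limma adjusted p 0.833), which overlap.

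Genes with very long introns had 23 .primary rows. All of these had a negative log2 fold change, 10 (43.5%, against 20.9% of all .primary rows) lay below all IgG libraries and 0 above, and the median was -1.013 against -0.27 over all .primary rows. GPC6.primary, from a glypican gene that spans 1191492 bases (chr13:93216529-94408020), had 323 and 381 RPM in Sfpq A and B and 1313, 1587 and 699 in IgG A, B and C (log2 fold change -1.69, SE 0.50, limma adjusted p 0.587). PDE4D.primary, from the gene of a cyclic AMP phosphodiesterase, had 145 and 144 in Sfpq and 634, 713 and 316 in IgG (-1.85, SE 0.50). IMMP2L.primary, from the gene of a mitochondrial inner membrane peptidase, had 218 and 265 in Sfpq and 815, 732 and 336 in IgG (-1.28, SE 0.50). For these genes IgG A and B were close to the Brg1 libraries, at 1730 and 1599 for GPC6.primary, while Sfpq and IgG C were closer to the inputs, at 389 and 365. The 19 plain rows of the list had a median of 1.31 (edgeR 0.66). Of these, 8 (42.1%, against 33.3% of all plain rows) lay above all IgG libraries and 0 below. Scaled to the total of their own kind, the .primary rows of the list kept a negative median, at -0.26, where all .primary rows had 0.56.

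**Figure D5:**
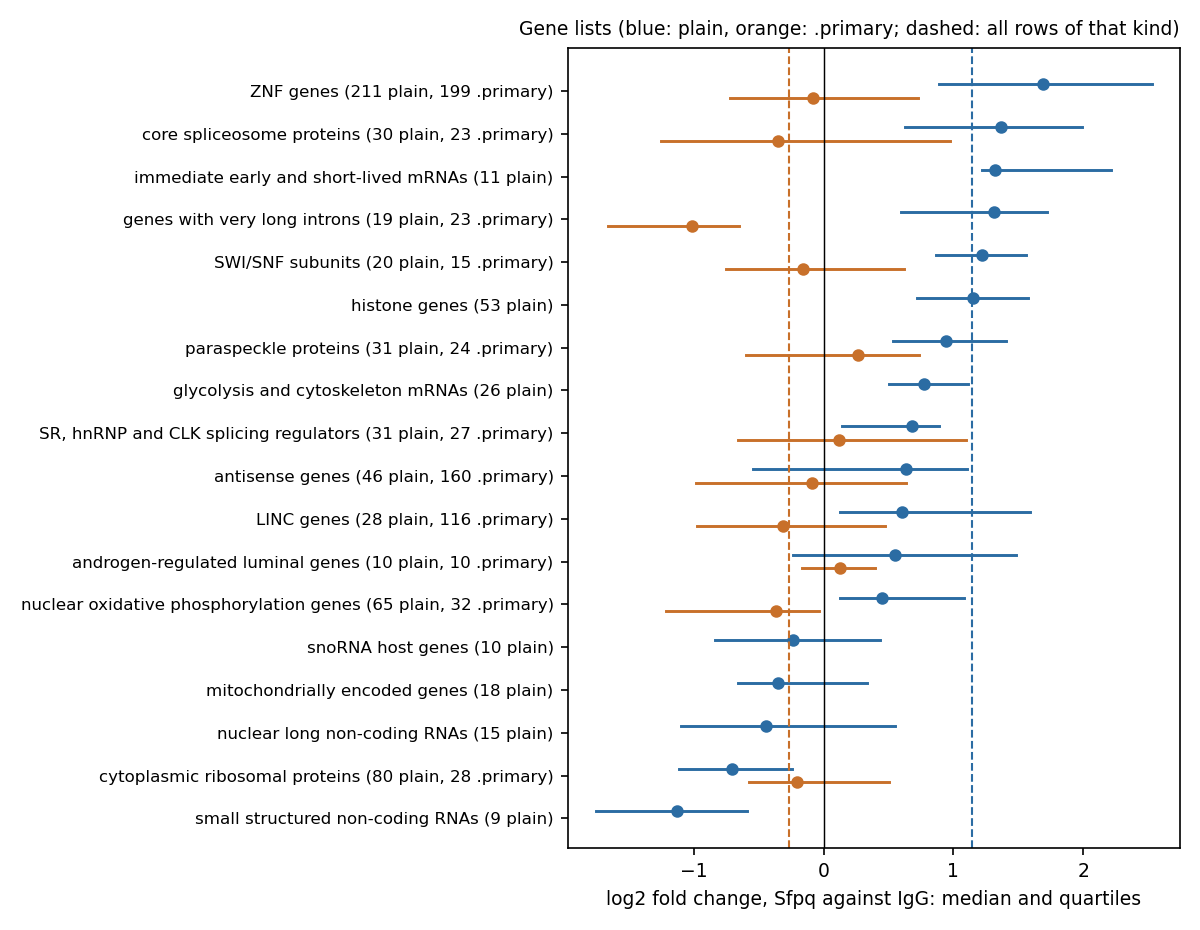
Median (point) and quartiles (line) of the log2 fold change of Sfpq against IgG (horizontal axis) in each gene list with at least 9 rows tested, for plain rows (blue) and .primary rows (orange), beside the medians of all rows of each kind (dashed, 1.14 and -0.27). The plain medians run from -1.13 for small structured RNAs to 1.69 for ZNF genes, an order that changes at the upper end in edgeR, where ZNF genes are at 0.91.

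Cytoplasmic ribosomal proteins had 80 plain rows. Of these, 70 had a negative log2 fold change, 25 (31.2%, against 3.56% of all plain rows) lay below all IgG libraries and 1 above. The median was -0.71 against 1.14 over all plain rows, and -0.39 without IgG C. RPS2 had 391 and 316 RPM in Sfpq A and B and 931, 521 and 1868 in IgG A, B and C (log2 fold change -1.46, SE 0.55, limma adjusted p 0.587). RPL4 overlapped, at 815 and 619 in Sfpq and 608, 530 and 1137 in IgG. Plain rows of nuclear oxidative phosphorylation genes had a median of 0.45 over 65 rows. It was -0.02 when scaled to the total of plain rows, -0.37 in edgeR, and 0.16 and 0.96 without IgG B and C. Of these rows, 5 (7.69%, against 33.3% of all plain rows) lay above all IgG libraries and 3 (4.62%, against 3.56%) below. Ribosomal protein genes have many processed copies in the genome, so their reads can be split between near-identical rows.

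The 18 mitochondrially encoded rows did not move as a block. MT-CO1, a subunit of cytochrome oxidase, had 1935 and 1865 RPM in Sfpq A and B and 3480, 5311 and 8118 in IgG A, B and C, below every IgG library (log2 fold change -1.48, SE 0.62, limma adjusted p 0.601). MT-ND5, a subunit of complex I, had 4529 and 4594 in Sfpq and 2092, 3903 and 5101 in IgG, which overlap. All 18 were plain rows. Of these, 1 (5.56%, against 33.3% of all plain rows) lay above all IgG libraries and 4 (22.2%, against 3.56%) below. Their median was -0.35 against 1.14 over all plain rows, and it was -0.65 without IgG A and -0.06 without IgG C. For both MT-CO1 and MT-ND5, IgG C was highest and IgG A lowest of the IgG libraries.

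ZNF genes, most of which encode zinc finger transcription factors, had a median of 1.69 over 211 plain rows, and of 0.91 in edgeR. Of these rows, 94 (44.5%, against 33.3% of all plain rows) lay above all IgG libraries and 0 below. Immediate early and other short-lived messages had 11 plain rows, all positive, as were 7196 of all 8483 plain rows. Above all IgG libraries lay 6 (54.5%, against 33.3% of all plain rows). The median was 1.32 against 1.14 over all plain rows, and it was 0.88 without IgG B and 2.10 without IgG C. JUN, a subunit of the AP-1 transcription factor (chr1:58780791-58784047), had 296 and 281 RPM in Sfpq A and B and 71.4, 6.85 and 143 in IgG A, B and C (log2 fold change 2.74, SE 0.92, limma adjusted p 0.587). MCL1, an inhibitor of apoptosis, had 218 and 197 in Sfpq and 146, 64.0 and 69.3 in IgG. For JUN, 12 reads carry the value of IgG B.

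Histone genes gave 53 plain rows with a median of 1.15, 11 (20.8%, against 33.3% of all plain rows) above all IgG libraries and 1 below. The median was 0.34 without IgG B and 0.58 in edgeR. HIST1H1C had 1210 and 924 RPM in Sfpq A and B and 364, 233 and 621 in IgG A, B and C. HIST1H2BD had 332 and 266 in Sfpq and 162, 0 and 0 in IgG, so its log2 fold change of 5.77 rests on 2 IgG libraries without a read. Histone genes share near-identical copies, and reads could be split between them.

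Controls that are often taken as stable did not all behave alike. GAPDH, a glycolytic enzyme, had 549 and 424 RPM in Sfpq A and B and 435, 419 and 868 in IgG A, B and C, and overlapped (log2 fold change -0.16, SE 0.49, limma adjusted p 0.971, and 0.18 without IgG C). ACTB, a cytoskeletal actin, had 959 and 858 in Sfpq and 510, 297 and 845 in IgG, above every IgG library by a narrow margin over IgG C (0.85, SE 0.51, limma adjusted p 0.677). HOXB13, a homeobox factor of luminal prostate cells, was present in every library, at 38.0 and 31.8 RPM in Sfpq A and B and 16.95, 63.4 and 44.8 in IgG A, B and C, which overlap. COL1A1 was the only marker of other cell types with a row, at 23.8 and 24.8 in Sfpq and 14.5, 0 and 12.2 in IgG.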

How the data were processed

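Sequencing libraries of RNA recovered from fixed 22Rv1 cells, and of input RNA, were made with a stranded ribosomal RNA depletion kit after equal volumes of ERCC standards were added, per the labels' protocols. The deposited table holds normalized signal values, which the authors obtained as read counts times 1 factor per library. The submitters' processing notes name STAR 2.6, Salmon 0.8.2, deepTools 2.5.2, DESeq2 and hg38 without a role. How the factors were chosen is not given in the sources used here.

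Each Sfpq and IgG column was divided by its smallest positive value, and 100% of the values then came out as whole reads within 0.001. Shares were taken as RPM, for Brg1 and input over summed values, so differences in total yield are not measured. Rows with 30 or more IgG reads were compared by limma 3.58.1 (R 4.3.3, trend) on log2(RPM + 1), with Benjamini-Hochberg adjustment over all 17464 rows and calls at an adjusted p under 0.05. As alternatives, edgeR 4.0.16 and DESeq2 1.42.0 were run on the recovered reads. Library-level shares were compared by exact permutation tests. Names were matched to RefSeq GRCh38.p14, the same assembly as hg38, for 12851 of 14296 row names. The rows left out held 6.38% and 6.60% of the reads of Sfpq A and B and 0.452%, 0.471% and 4.98% of those of IgG A, B and C. A count of 0 allows up to 3 reads, or 0.420, 0.408, 0.678, 1.71 and 6.11 RPM in the same order, for counting error only.

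Rows were named by rule: up to 8 per direction by size of change or, where too few passed, by moderated t, with a mean of at least 20 RPM and no overlap of groups, fixed rows of interest, and the 2 rows of highest mean share per list. Some of the last are not named in the text. Members and lists were chosen with earlier results of these data known. The table for LNCaP cells was not used here. One marker gene of the labelled cell type, and sums that include it, are not reported here.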

Additional observations from a re-analysis of the deposited data

How the results depend on the processing

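The 0 rows called higher and 4 called lower by limma became 1 and 7 with a pseudocount of 5 RPM, 1299 and 17 with no filter on reads, 1 and 7 with each kind of row scaled to its own total, and 355 and 197 with voom weights. Lower calls were 0 at 100 or more IgG reads, 0 at a mean share of at least 5 RPM, 0 without a trend in eBayes and 2 without the 100 rows of most reads. With all 4 groups in the fit the calls were 1 and 6. edgeR called 0 and 0 with library totals and with TMM factors, and DESeq2 9 and 56. Leaving out 1 library gave 0 to 420 higher and 0 to 11 lower. A replicate block on the letters gave 724 and 271 calls. The A minus B deviations of Sfpq and IgG had a correlation of 0.00344 across rows. This cannot decide whether the letters pair the libraries, since the median row had an SD of 1.76 in IgG and 0.151 in Sfpq. The labels do not say what the letters mark, and they were not treated as pairs.

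The median log2 fold change of plain rows, 1.14, was 0.65 with each kind scaled to its own total, 0.52 and 0.49 with edgeR (library totals, TMM) and 0.46 with DESeq2. Leaving out 1 library gave 0.78 to 1.35. That of .primary rows, -0.27, reversed to 0.13 with no filter and to 0.56 with each kind scaled to its own total, and was -0.95, -1.02 and -1.04 with edgeR (library totals, TMM) and DESeq2. Leaving out 1 library gave -0.43 to -0.03. Rows with Sfpq above every IgG library, 3318, ranged from 3731 to 5708 on leaving out 1 library, and rows below, 2179, from 2345 to 4445, where fewer libraries have to be cleared. The cause of the other changes was not tested. The low read total of IgG C (490879) limits what can be seen in rows of few reads. The medians and the counts without overlap under these settings were added after the data were seen.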

Other observations

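Rows without any IgG read stood outside the comparison, and these rows and the groups below were picked after their values were seen. There were 477 of them, 233 plain and 244 .primary, with a median of 105 Sfpq reads. BLOC1S5-TXNDC5, a read-through of neighbouring genes, had 412 and 500 reads in Sfpq A and B, or 57.7 and 68.0 RPM, and 17.2 and 10.8 RPM in the inputs. BEND3, a chromatin-binding repressor, had 302 and 345 reads, or 42.3 and 46.9 RPM, and 27.2 and 21.8 RPM in the inputs.

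Among 9389 rows with at least 20 RPM in both Sfpq libraries, 225 had a lowest Sfpq share of 2-fold or more over the highest of the other 7 libraries of the cell line, IgG, Brg1 and input together. Of the 225, 211 were plain rows. The 9389 rows entered through their Sfpq shares, and the plain rows among them were not counted. Neither number is therefore a test. ASXL3, a Polycomb-associated gene, had 73.4 and 66.8 RPM in Sfpq, 13.1, 2.28 and 2.04 in IgG A, B and C, 16.2 and 8.22 in Brg1 and 16.6 and 15.2 in the inputs. NCOA6 followed, at 302 and 327 in Sfpq against at most 78.8 elsewhere.

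There were 18 rows in which every Sfpq and IgG library had at least 20 RPM and at least 2-fold the share of every Brg1 and input library, 16 of them .primary rows. They took 0.397% and 0.410% of the reads in Sfpq A and B, 0.870%, 1.66% and 3.03% in IgG A, B and C, 0.0696% and 0.0707% in Brg1 and 0.0763% and 0.0780% in the inputs. The rule that picked the rows fixed the lower shares in Brg1 and input. Sfpq was below every IgG library in 15 of the 18 rows, against 12.5% of all rows tested and 20.9% of .primary rows. The 18 rows entered through their high Sfpq and IgG shares, so this contrast is no test. MT-TH, DDT.primary and ERCC6L overlapped. TGFA.primary, from the gene of a growth factor, had 356 and 322 RPM in Sfpq, 737, 1064 and 2958 in IgG A, B and C, 39.6 and 35.5 in Brg1 and 46.2 and 54.4 in the inputs. In 16 of the 18 rows IgG C was highest and IgG A lowest of the IgG libraries, so the rows may not be 18 separate observations. The ratio of IgG C to IgG A ranged from 0.684 (COL18A1.primary) to 4.53 over the 18 rows. None of these rows was called by limma.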
